A study of Rattus norvegicus with 8 samples.

Results

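Notch pathway genes were examined in the lungs and blood of rats of the NNK lung cancer model. The 10 genes are the receptors Notch1, Notch2, Notch3 and Notch4, the ligands Jag1, Jag2 and Dll4, and the target genes Hes1, Hey1 and Nrarp. Their probes were found through the RefSeq accession printed on the array for each spot that is not a control. Of the 10 genes, 8 had a probe among the 13903 genes named on the array, and each was measured by 1 probe with 1 spot, out of 24684 probes. Jag2 and Hey1 had no matching probe. All animals were male F344 rats, and all samples were taken at week 95. The lung tumor tissues and the normal lung tissues matched to them, 3 arrays each, came from animals treated with NNK (4-(methylnitrosamino)-1-(3-pyridyl)-1-butanone, a lung carcinogen of tobacco smoke). The tumors were described as moderately differentiated adenocarcinomas, and no lung of an untreated rat was on the arrays. RNA from the clot of whole blood was measured on 1 array for the control group and 1 array for the NNK treatment group. The free-text description of the NNK blood sample names a lung tumor, but the sample was used as blood, as the other labels state, and red cell genes were bright on both blood arrays (log2 signal in control and NNK blood of 19.33 and 19.33 for Hbb, 19.20 and 19.33 for Alas2, 17.37 and 16.53 for Ahsp, and 15.20 and 14.38 for Slc4a1). The dose of NNK is not given in the sources used here.

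The Notch receptors are transmembrane proteins that are activated by ligands of the Delta and Jagged families on a neighboring cell. Ligand binding exposes the receptor to cleavage by a metalloprotease and then by gamma-secretase, and the freed intracellular domain enters the nucleus, where it binds the DNA-binding protein Rbpj and switches on genes such as Hes1, the Hey genes and Nrarp. In the lung the pathway is known for its part in choosing between secretory and ciliated airway cells and in vessels, where Dll4 and Notch4 are typical of endothelium and Notch3 of the smooth muscle and pericytes around it.

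The promoters of 3 of these genes are shown because Rbpj acts through the short core TGGGAA. All 3 genes were lower in lung tumors, Hes1 by less than 2-fold, and a link between the core and these falls was not tested. Each sequence is the 250 bases upstream of the transcription start in RefSeq, assembly GRCr8, written 5′ to 3′ on the strand of the gene, and capitals mark TGGGAA or its reverse complement TTCCCA. The Hes1 promoter is chr11:84213046-84213295 on the minus strand, the Notch4 promoter is chr20:4189073-4189322 on the minus strand and the Nrarp promoter is chr3:28390495-28390744 on the plus strand.
Hes1: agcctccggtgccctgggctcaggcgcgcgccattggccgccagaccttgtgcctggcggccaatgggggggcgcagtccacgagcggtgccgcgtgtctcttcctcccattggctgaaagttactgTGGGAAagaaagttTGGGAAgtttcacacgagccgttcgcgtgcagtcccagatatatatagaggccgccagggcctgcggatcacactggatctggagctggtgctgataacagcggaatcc
Notch4: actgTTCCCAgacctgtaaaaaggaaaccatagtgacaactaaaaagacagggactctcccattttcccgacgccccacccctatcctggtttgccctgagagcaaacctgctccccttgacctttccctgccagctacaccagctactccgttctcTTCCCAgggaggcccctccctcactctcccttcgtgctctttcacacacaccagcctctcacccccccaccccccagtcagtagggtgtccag
Nrarp: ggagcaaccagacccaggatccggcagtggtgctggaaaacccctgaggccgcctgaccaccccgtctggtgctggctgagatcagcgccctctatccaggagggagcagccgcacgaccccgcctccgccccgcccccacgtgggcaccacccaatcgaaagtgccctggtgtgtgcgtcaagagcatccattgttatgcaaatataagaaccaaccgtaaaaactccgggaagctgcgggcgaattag

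Hes1, a repressor and the classical direct target of Notch, held the core at -123 to -118 and again at -109 to -104 from the start, both in the direction of the gene. Notch4 held it at -246 to -241 and -93 to -88 on the opposite strand, whereas the Nrarp window held none. Promoters were at hand for 8 of the 10 genes (all but Dll4 and Hey1), and 3 of the 8 had the core within 250 bases before to 50 bases after the start, the third being Notch3 at position 43. Of all 33465 rat promoters of that length, 25.7% had it on either strand. The longer site CGTGGGAA was in 0 of the 8 and in 0.723% of all promoters. The N-box CACNAG, which Hes proteins bind, was in 5 of the 8 against 43.1% of all, and the E-box CACGTG in 1, that of Nrarp, against 6.42%. A match is a description of these letters and not a binding site.

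Before the comparison, the arrays themselves were set against each other. The 3 normal lung arrays differed from one another by 0.816 to 1.37 times the squared difference that replicate spots of a probe lead to, and tumor arrays 2 and 3 by 0.582 times, while tumor array 1 differed from them by 6.23 to 6.43 times and tumor from normal arrays by 23.9 to 33.7 times. The normal arrays, and tumor arrays 2 and 3, could not be told apart from repeats of 1 sample by this measure, so the results for Notch pathway genes were also computed with them counted once, as 1 normal and 2 tumor samples. The marker lists and the similarity of patterns were not. The p-values of the 6 arrays measure the spread between arrays, which may be technical. Outlier marks, which the scanner software sets on uneven spots, lay on 4.92% to 8.62% of the bright spots of normal arrays and on 15.9% to 25.3% of those of tumor arrays. The 3 normal arrays and tumor array 1 shared a scan time, and tumor arrays 2 and 3 shared another, which is taken here as a slide.

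In lung tumor tissues 4 of the 7 genes with a test fell at least 2-fold (Notch1, Notch4, Dll4 and Nrarp), 1 rose (Notch3), and Jag1 and Hes1 fell by less than 2-fold. The genes that fell comprise receptors, a ligand and a feedback gene, with falls of 4.52-fold to 6.12-fold. Values are log2 processed signals, quantile-normalized over the 6 lung arrays, and a call needs an adjusted p of at most 0.05 (limma, Benjamini-Hochberg over all probes) with a change of at least 2-fold. With marked spots left out, 13.5% of the 12471 probes tested were called higher and 15.5% lower. With marked spots kept, which supplied Notch1, Notch4 and Jag1, the shares were 13.5% and 14.4% of 15803 probes. The tumor and normal arrays did not overlap for any of the 7 genes, as was so for 38.3% of all probes in the higher and 34.7% in the lower direction. Fewer cells of a type and less RNA per cell cannot be told apart in these tissue samples.

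**Figure D1:**
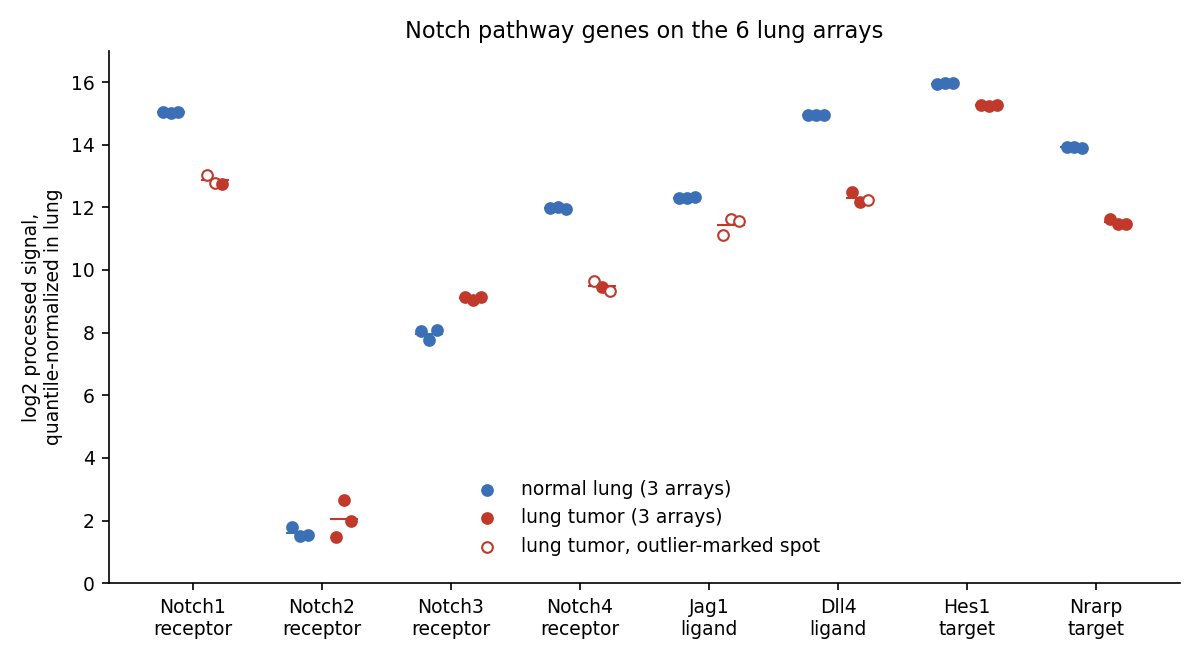
Log2 processed signal (quantile-normalized in lung, vertical axis) of the 8 genes with a probe on the 3 normal lung arrays (blue) and the 3 lung tumor arrays (red). Each point is 1 array, short lines are group means and open points are outlier-marked spots; the tumor points of Notch1, Notch4, Jag1, Dll4, Hes1 and Nrarp lie below all normal points, and those of Notch3 above them.

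Notch1, the receptor best known from T cell and endothelial development, measured 15.04, 15.00 and 15.06 on the normal arrays and 13.03, 12.79 and 12.76 on the tumor arrays. Every tumor value lay far below every normal value. The difference was -2.18 (SE 0.087, 95% interval -2.39 to -1.96, limma adjusted p = 1.44e-05), or 4.52-fold lower. The spots on tumor arrays 1 and 2 were outlier-marked.

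Notch4, a receptor largely restricted to endothelium, gave 11.97, 12.02 and 11.96 in normal lung and 9.64, 9.47 and 9.31 in tumors. Again the groups were far apart, and the normal arrays were within 0.06 of each other while the tumor arrays spread over 0.33. The difference of -2.51 (SE 0.095, 95% interval -2.74 to -2.27, limma adjusted p = 1.22e-05) corresponds to a 5.69-fold lower signal, with marked spots on tumor arrays 1 and 3.

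Notch3, the receptor of vascular smooth muscle and pericytes, was the only gene of the 7 to run the other way. Its normal values were 8.04, 7.75 and 8.08 and its tumor values 9.15, 9.03 and 9.15. Its normal arrays spread over 0.32, more than its tumor arrays. The rise was 1.15 (SE 0.105, 95% interval 0.88 to 1.41, limma adjusted p = 0.000345), or 2.22-fold. The rise was 1.16 with near-identical arrays counted once, where its adjusted p of 0.0573 missed the threshold, and it was 0.998 (just under 2-fold) with all 8 arrays normalized together.

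Notch2 was not well above background on any of the 6 lung arrays. Its signals, 1.78, 1.52 and 1.52 in normal and 1.48, 2.67 and 1.99 in tumor tissue, overlapped and were not tested.

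Dll4, the Delta ligand of endothelial tip cells and arteries, fell most of the 7. It measured 14.95, 14.96 and 14.94 in normal lung and 12.49, 12.18 and 12.22 in tumors, the spot on tumor array 3 being marked and left out of the fit. The normal arrays agreed within 0.02, and every tumor array lay far below them. The difference was -2.61 (SE 0.110, 95% interval -2.91 to -2.32, limma adjusted p = 7.38e-05), or 6.12-fold lower. The methods name unpaired and paired t-tests without saying which was used for the arrays. In a paired t-test per probe, the adjusted p of Dll4 rose to 0.0792 at a difference of -2.62, with only 2 pairs left after the marked spot.

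Jag1, the Jagged ligand found in both vessels and epithelium, measured 12.31, 12.29 and 12.34 in normal lung and 11.10, 11.64 and 11.58 in tumors, all tumor spots being marked. Tumor array 1 was the lowest, at 1.21 below the normal mean, while arrays 2 and 3 were 0.67 and 0.73 below it. The difference of -0.87 (SE 0.154, 95% interval -1.26 to -0.48, limma adjusted p = 0.00424) is 1.83-fold and was not called. With the slide as a block, where tumor array 1 alone stands against the normal arrays, it was -1.21 and passed (adjusted p = 0.000152).

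Nrarp, a small ankyrin-repeat protein that Notch induces and that limits Notch in turn, gave 13.93, 13.93 and 13.90 in normal lung and 11.63, 11.46 and 11.48 in tumors. No spot was marked. The difference was -2.39 (SE 0.064, 95% interval -2.56 to -2.23, limma adjusted p = 6.23e-06), or 5.26-fold lower.

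Hes1 measured 15.93, 15.96 and 15.96 in normal lung against 15.28, 15.24 and 15.27 in tumors, the smallest change of the 7 genes, except that Jag1 changed less with all 8 arrays normalized together (-0.80 against -0.86 for Hes1) and in the authors' values (-0.81 against -0.86). Both groups were tight, spreading over 0.03 and 0.04, and they did not overlap. Its difference was -0.68 (SE 0.047, 95% interval -0.80 to -0.57, limma adjusted p = 0.000116), a 1.61-fold lower signal that did not reach 2-fold. The targets Hes1 and Nrarp had intervals that did not overlap, though the difference between their falls was not tested.

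Tumor array 1 stood between the normal arrays and tumor arrays 2 and 3 for Notch1, Notch4, Dll4 and Nrarp, with differences from the normal mean of -2.01, -2.34, -2.46 and -2.29 against -2.77 to -2.24 on the other two. Within the slide that holds it, these 4 differences are also the slide-blocked values. That fit sets a lone tumor array against the normal arrays and assumes that it varies like the others, and all 4 passed in it. With near-identical arrays counted once, Notch1 (-2.13, adjusted p = 0.0313), Notch4 (-2.47, 0.0289), Dll4 (-2.61, 0.0358) and Nrarp (-2.37, 0.0353) were under the limma threshold, and Jag1 (-0.95, 0.143) and Hes1 (-0.68, 0.12) were no longer under it. There only the 2 tumor samples, with limma's moderation over all probes, give a spread, and a single normal sample has to be taken as equally variable.

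The other genes of the pathway mostly moved little. Of 67 further pathway genes, 44 had a probe and 34 a lung value. Of these 34, 1 rose past 2-fold, 5 fell past 2-fold, 14 passed the adjusted p with a change of under 2-fold (5 above and 9 below 0, from -0.81 to 0.95), and 14 did not pass. The highest value under 2-fold, that of Pofut1 at 0.95, was not well above background on any normal array and gives no lower bound above 1-fold. The called counts are to be read against 13.5% of all probes higher and 14.4% lower with marked spots kept, and the 5 of 34 that fell are near that share. With marked spots kept their median difference was -0.07, against -2.18 for the 7 listed genes and 0.06 for all probes. With marked spots left out, 25 were tested, and 0 rose and 2 fell.

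Among the other ligands 2 of 4 fell. Dlk1, an atypical Notch ligand of stem and progenitor cells, fell most, from 14.87, 14.77 and 14.77 in normal lung to 9.27, 9.25 and 9.12 in tumors (-5.59, SE 0.066, limma adjusted p = 1.52e-06). Dll1, a canonical Delta ligand, fell from 13.49, 13.46 and 13.28 to 10.13, 10.24 and 10.23 (-3.21, SE 0.081, limma adjusted p = 4.5e-06). All 3 tumor spots of both genes were marked. Dll3 (-0.28) and Dlk2 (0.76) did not pass.

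Of the target genes beyond Hes1 and Nrarp, only Heyl had a testable probe. Heyl, a transcriptional repressor of vessels and muscle, fell from 10.68, 10.95 and 10.95 to 7.86, 7.63 and 7.55 (-3.18, SE 0.121, limma adjusted p = 1.55e-05). Hey2 had no probe, and Hes2, Hes3, Hes5 and Hes7 stayed under the filter on dim probes in lung.

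Among the glycosylation and cleavage genes 1 of 4 was called. Mfng and Lfng are enzymes that extend sugars on the receptors. Mfng fell from 7.36, 7.33 and 7.05 to 6.25, 5.72 and 5.63 (-1.38, SE 0.191, limma adjusted p = 0.00177), and it fell by less than 2-fold with normexp background correction (-0.95) and with the slide as a block (-0.999). Lfng was 0.55 lower, which is under 2-fold. In the gamma-secretase complex 0 of 4 genes were called, with Psenen at 0.79, Aph1b at 0.43, Ncstn at 0.22 and Psen2 at -0.11.

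In the nucleus Rbpj, the DNA-binding partner of every Notch receptor, measured 7.02, 7.00 and 6.76 in normal lung and 7.86, 7.52 and 7.53 in tumors. The groups did not overlap, but the rise of 0.71 (SE 0.128, limma adjusted p = 0.00503) was under 2-fold. Kat2b, a histone acetyltransferase of the activating complex, fell by 1.09 (limma adjusted p = 5.92e-05). Ctbp2, a corepressor, rose from 11.36, 11.21 and 11.25 to 12.71, 12.50 and 12.53 (1.30, limma adjusted p = 7.43e-05). All 3 tumor spots of Ctbp2 and 2 of the 3 of Kat2b were outlier-marked, so both values are with marked spots kept. Of the inhibitors and turnover genes 0 of 6 were called, Numb being lowest at -0.81.

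**Figure D2:**
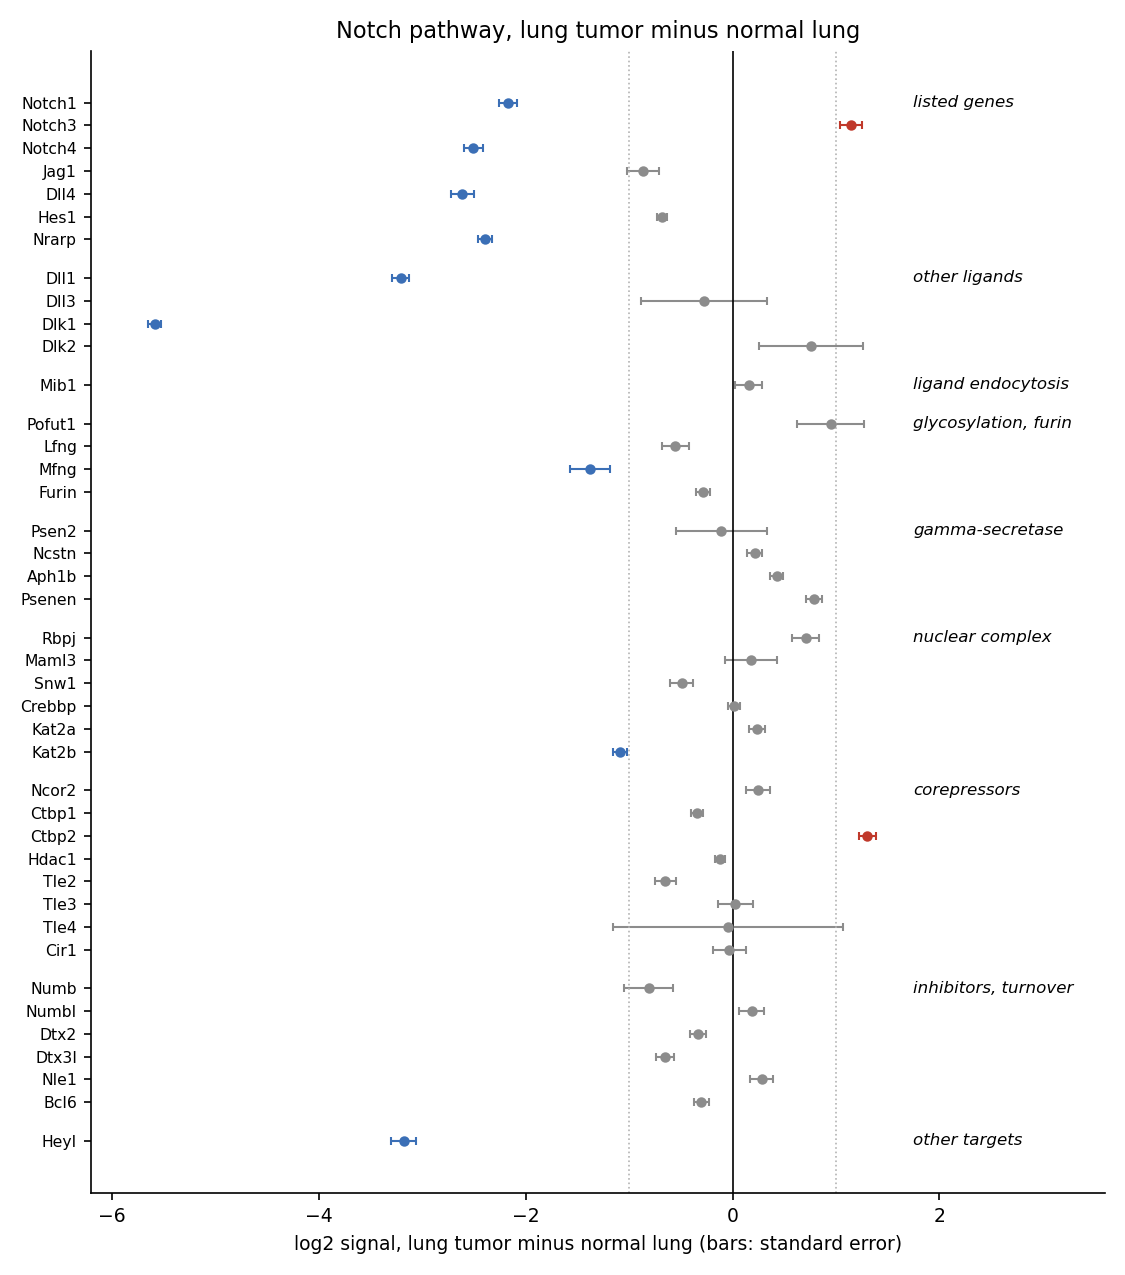
Log2 difference of lung tumor minus normal lung (horizontal axis) with its standard error for the 7 listed genes with a test and 34 other pathway genes, in groups by role. Blue points were called lower, red points higher and grey points neither, and dotted lines mark 2-fold; Notch1, Notch4, Dll4, Nrarp, Dll1, Dlk1, Heyl, Mfng and Kat2b lie left of -1 and Notch3 and Ctbp2 right of 1.

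Vessel markers moved in the same direction as Dll4, Notch4 and Nrarp. Of 16 endothelial markers listed, 9 had a probe, 8 were tested with marked spots kept, 6 fell and 0 rose, with a median of -1.91. Tek, an angiopoietin receptor (-2.74), and the transcription factors Sox17 (-2.81) and Sox18 (-2.57) were among those that fell, while Esam (-0.56) and Erg (-0.71) were not called and Cdh5 was not well above background on any lung array. The summed signal of the endothelial markers was 441840 to 451260 on the normal arrays and 103010 to 106110 on the tumor arrays. Summed signals are on the linear scale, so the brightest probes weigh most, here Tek (mean log2 of 17.29 in normal lung) and Sox17 (16.79). Among 8 probes of arterial endothelial markers 5 fell and 0 rose (median -1.04), with Gja5 at -1.88 and Gja4 at -1.81, although Unc5b was at 1.59 (adjusted p = 0.0726 in limma, not passed) and the 3 probes of Cxcl12 disagreed (0.31, -1.23 and -0.98). Of 7 mural markers, those of smooth muscle and pericytes, 3 fell and 0 rose (median -0.71), with Cspg4 at -2.06 and Cnn1 at 0.70, whereas Notch3 rose. Values of single genes are with marked spots left out wherever enough spots allowed it. The part that these cells have in the Notch results was not tested.

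Other cell types differed between the tissues as well. Of 9 probes for type 1 alveolar markers 7 fell (median -1.68), and their summed signal was 1493500 to 1509700 on normal and 405370 to 425500 on tumor arrays. Rtkn2 ran the other way at 0.9997 (limma adjusted p = 0.0106), just under 2-fold, and was not well above background on any normal array. Of 9 type 2 alveolar markers 1 rose, Sftpc by 1.14 (median 0.36), while 3 were below 0 and 0 were called lower. Of 5 proliferation markers 3 rose (median 1.92), with Cdk1 at 2.52, while Aurka (-0.46) and Bub1 (-0.40) were below 0 and not called. The share of these cells in the Notch results was not tested either.

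**Figure D3:**
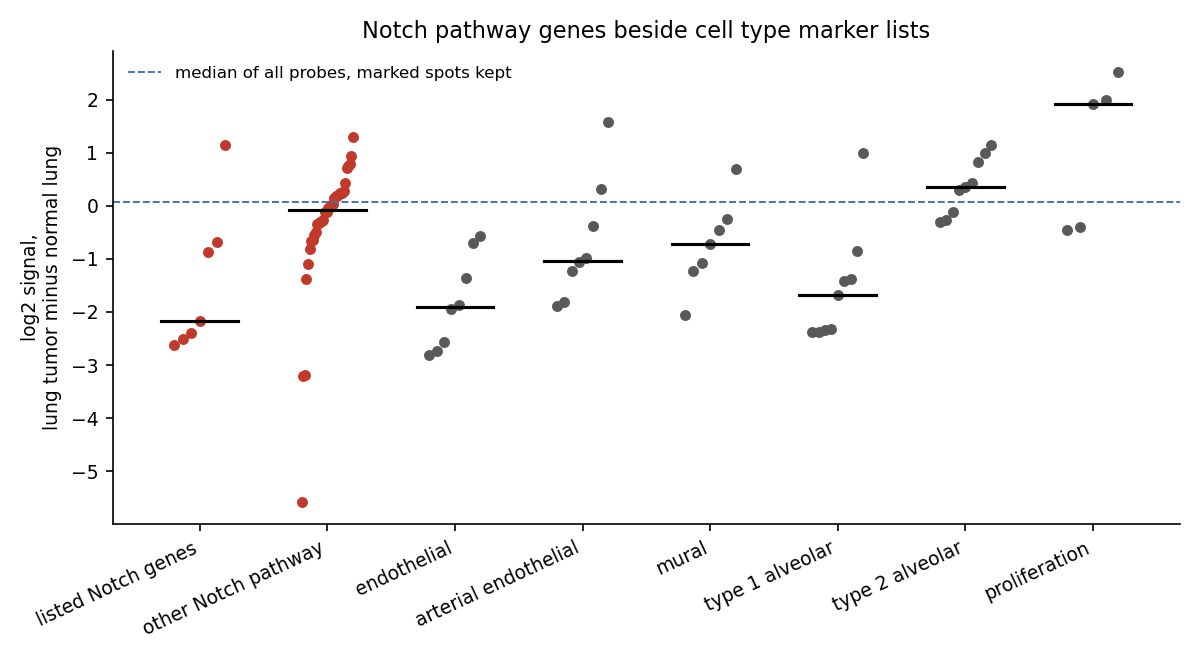
Log2 difference of lung tumor minus normal lung (vertical axis) for each tested gene of the listed Notch genes, the other Notch pathway genes and 6 cell type marker lists. Each point is a probe, black lines are list medians with marked spots kept and the dashed line is the median of all probes (0.06). The medians are -2.18 for the listed Notch genes, -1.91 for endothelial, -1.68 for type 1 alveolar and -0.07 for the other Notch genes. Lists not drawn reach similar medians (platelet -2.03, neutrophil -2.02). The summed platelet signal was nevertheless higher on tumor (7746 to 9075) than on normal arrays (4927 to 5266).

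The genes whose pattern over the 6 lung arrays was most like those of Dll4, Notch4 and Nrarp were found by the distance between log2 signals centred on each probe's own mean. For Dll4 they included Cbfa2t3 and Chit1 (distances 0.062 and 0.076 among 7286 candidates with a median of 3.32). For Notch4 they were Sncaip, Sycp2 and Khdrbs3 (0.101, 0.114 and 0.131, median 3.15), and for Nrarp Dchs1, Epb41l4a and Cd93 (0.055, 0.089 and 0.093, median 3.01). These 8 genes differed between tumor and normal lung by -2.69 to -2.41, close to the differences of Dll4, Notch4 and Nrarp themselves, so the distance mostly reflects the size of the fall.

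In blood, where each group has 1 array, values carry no test. Of the 7 genes well above background on at least 1 blood array, 1 was at least 2-fold higher in the NNK treatment group (Notch1) and 1 at least 2-fold lower by its measured signal (Jag1), while 23.1% of the 14452 probes compared were higher and 19.1% lower by that measure. Notch1 was 7.79 in control and 9.04 in NNK blood, 2.38-fold higher. Jag1 was 4.65 in control blood and not well above background in NNK blood, which gives only that it was at least 1.33-fold lower there. Hes1 was 6.29 and 5.49 (-0.81), Notch4 9.10 and 8.53 (-0.57), Notch3 6.54 and 6.13 (-0.41), Nrarp 6.47 and 6.22 (-0.25) and Notch2 4.83 and 5.15 (0.31). Dll4 was not well above background on either blood array. Of 5 T cell markers 4 were at least 2-fold higher in NNK blood (median 2.12) and 3 of 4 platelet markers at least 2-fold lower (median -1.32). Other lists moved as well. Of the macrophage markers 2 of 2 and of the neutrophil markers 2 of 4 were higher (medians 1.48 and 0.999). Of 8 endothelial markers 4 were lower and 1 was higher (median -0.93). The part of these cells in the Notch values was not tested.

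Of the further pathway genes with a blood value, 33 in all, 8 were higher past 2-fold in NNK blood and 7 were lower past 2-fold. These counts are near the shares over all probes, 23.1% higher and 19.1% lower. Several of the genes counted were well above background on only 1 blood array, so the size of their change is not measured. The median was -0.33 against -0.11 for all probes. Rbpj was 12.09 in control and 13.04 in NNK blood, and Ctbp2 7.60 and 5.998. Dlk1 was 6.72 and 5.98 and Heyl 4.81 and 4.74, and Dll1 was not well above background in either.

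Levels in lung and blood can be set side by side only with care, because the order depends on the scaling. The 75th percentile of the processed signal was 1191 to 1330 on the lung arrays but 95.4 on the control and 206 on the NNK blood array, and lung and blood lie on different slides. As deposited, without scaling between arrays, the 7 genes detected in lung were all brighter on every lung array than on either blood array. Notch4 gave 3958 to 4562 in normal lung, 672 to 809 in tumors, and 416 in control and 501 in NNK blood. Notch1 gave 33964 to 35900, 6495 to 8190, then 155 and 693, and Notch3 216 to 242, 559 to 606, then 62.0 and 108. Notch2 was above background in blood alone, with 17.4 in control and 57.1 in NNK blood.

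With all 8 arrays normalized together, Hes1, Dll4, Nrarp and Jag1 kept the order of normal lung, tumors and blood. Hes1 was 15.30 to 15.34 in normal lung, 14.44 to 14.49 in tumors, and 8.01 and 6.55 in control and NNK blood. Dll4 was 14.09 to 14.12 and 11.20 to 11.49 in lung, with no signal well above background in blood. For the receptors the order changed with this scaling: Notch4 was then brighter in blood (12.10 in control and 11.52 in NNK) than in normal lung (11.00 to 11.06), and Notch1 in NNK blood (12.04) came level with tumors (11.76 to 12.03). With and without this scaling, Notch1 was brighter in normal lung than in either blood sample, and brighter in tumors than in control blood. With all 8 arrays normalized together Notch1 was 14.17 to 14.23 in normal lung and 10.6 in control blood. Notch3 was brighter in tumors than in NNK blood either way. The rank of Notch1 between tumors and NNK blood is not settled by these arrays. The other ranks of Notch3, and those of Notch4, between lung and blood are not settled either.

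**Figure D4:**
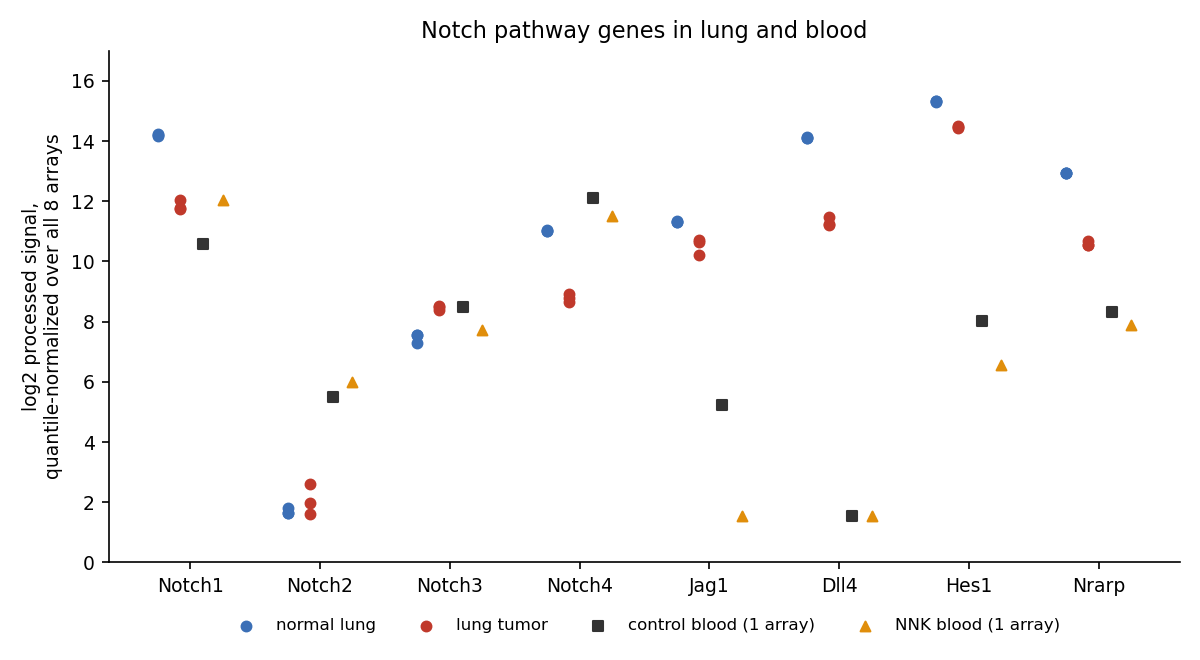
Log2 processed signal (quantile-normalized over all 8 arrays, vertical axis) of the 8 genes on the 3 normal lung arrays (blue circles), the 3 lung tumor arrays (red circles), control blood (black squares) and NNK blood (orange triangles), each point 1 array. Hes1, Dll4, Nrarp and Jag1 lie highest in normal lung and lowest in blood; Notch4 lies highest in blood on this scale but, without scaling between arrays, lower in blood (416 and 501) than in lung (672 to 4562).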

How the data were processed

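Total RNA of 8 samples was labelled with Cy3 and hybridized to the Arraystar rat lncRNA array. Per the file headers, Agilent Feature Extraction 10.5.1.1 (the version in the submitters' processing notes) gave the spot intensities the authors deposited, which were background-subtracted and not normalized between arrays. A table of log2 values from the authors, quantile-normalized by them in GeneSpring across the 8 arrays, served as an alternative. Arrays give no read depth, so their number limits the precision.

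Here quantile normalization was applied to the log2 processed signals of the 6 lung arrays, and separately to those of the 2 blood arrays (R 4.3.3, limma 3.58.1). Control spots and outlier-marked spots were left out, and the spots left for a probe were averaged. The filter asked for over 50% of the spots to be well above background on 3 or more of the 6 lung arrays, and for a value on 2 or more arrays per group. The tumor and normal groups were compared in limma (lmFit, then eBayes), two-sided, with the group as the only term and the Benjamini-Hochberg adjustment over all probes tested. Of 15803 probes, 3332 had too few unmarked spots, and a gene among them took its value from the same fit with marked spots kept. The code was tested on simulated data. A probe not well above background on all arrays of a group gives a bound: the brighter mean was set against the dim signal itself or, if higher, the faintest signal counted as well above background.

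Probes were named through RefSeq accessions of the assembly GRCr8, and 93.2% of the 15321 mRNA probes had a name. The text names the 10 genes, the called genes among the other pathway genes with Rbpj, Dll1, Lfng, Hey2 and Heyl, up to 3 markers a list (largest change), and the 3 most similar genes for the 3 largest changes, of which 1 is not reported here. Further genes (Cdh5, Esam, Erg, Cxcl12, Cnn1, Rtkn2, Aurka, Bub1, Pf4, Dll3, Dlk2, Numb and the gamma-secretase genes) were chosen after their values were seen. Pofut1, Hbb, Hes2, Hes3, Hes5 and Hes7 were likewise named outside the rule. The members and all lists were chosen with earlier results of these data known. The study calls the lung tissues matched, and tissues with the same number in the labels were taken here as pairs. Over 11359 probes the deviations of same-numbered arrays from their group means correlated at 0.143, -0.0406 and 0.16. Those of differently numbered arrays ran from -0.189 to 0.14, so the correlations did not set all assumed pairs apart. The replicate block is given as an alternative.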

Additional observations from a re-analysis of the deposited data

How the results depend on the processing

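Of the lung results for the 7 genes, none changed direction in any of 19 alternatives: Notch1 ran from -2.36 to -2.01, Notch3 from 0.998 to 1.30, Notch4 from -2.59 to -2.22, Jag1 from -1.21 to -0.70, Dll4 from -2.81 to -2.46, Hes1 from -0.86 to -0.67 and Nrarp from -2.54 to -2.29. The number called lower was 3 to 5 against 4 (Dll4 missed in the paired t-test, Jag1 joined with the slide as a block). At the unadjusted threshold of the study, the methods' t-test called 1 gene higher and 4 lower, unpaired and paired, and after Benjamini-Hochberg adjustment 1 and 4 unpaired and 1 and 3 paired. The number called higher was 0 in place of 1 with all 8 arrays normalized together and 0 with near-identical arrays counted once. With the replicate block, which uses the pairing assumed from the numbers, 1 gene was called higher and 4 lower, and no call changed. Nrarp kept -2.39 there (limma adjusted p = 0.000841).

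For the other pathway genes, where 0 rose and 2 fell with marked spots left out, 1 rose with a 75th percentile shift, 1 rose and 5 fell with marked spots kept, 2 rose and 5 fell in the authors' values, and 1 fell with normexp correction, 1 with the slide as a block and 1 with near-identical arrays counted once. Leaving out each array in turn gave 0 to 1 higher, the 1 being without normal array 1. Kat2b (adjusted p = 0.0612) and Mfng (0.111) missed the threshold with near-identical arrays counted once. Over all probes the counts, 1683 higher and 1929 lower, became 967 and 1256 with normexp correction and 778 and 976 with near-identical arrays counted once, and the paired t-test gave 1090 higher.

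In blood Notch1 was at least 2-fold higher in all 8 alternatives (1.05 to 1.47). The number of genes at least 2-fold lower, 1 as reported, was 2 with all 8 arrays normalized together and 2 in the authors' values (Hes1 joined Jag1, at -1.46 and -1.54), 0 with normexp correction and 0 where both arrays had to be well above background. The causes of these shifts were not tested. Signal over background limits Notch2 in lung and Dll4 and Jag1 in blood.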

Other observations

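The remaining marker lists are given as values with marked spots kept, lung tumor minus normal lung. Red cell genes fell for 3 of 4 probes (median -2.85), platelet genes for 3 of 4 (median -2.03) and neutrophil genes for 3 of 4 (median -2.02). In these lists 0 were called higher. The remaining platelet gene, Pf4, was 0.98 higher (limma adjusted p = 0.000203), just under 2-fold. The summed platelet signal was 4927 to 5266 on normal and 7746 to 9075 on tumor arrays. Ppbp and Gp9, which fell, were not well above background on any tumor array. Of 5 T cell genes 1 fell (median -0.63). Of 3 macrophage genes 0 were called (median 0.36), of 5 fibroblast genes 1 fell, Pdgfra by 2.38 (median 0.15), and of 3 club and ciliated cell genes 1 rose, Cyp2f4 by 1.08 (median -0.07). Of 8 liver genes 7 fell (median -3.45), and of 5 heart muscle genes 3 rose and 1 fell (median 1.05), with Tnnt2 at 4.94. The Notch genes were not compared with these lists by a test.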
